A study of Mus musculus with 8 samples.

Results

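The oocyte stores mRNAs made during its growth and holds many of them silent until meiosis resumes. Y-box proteins coat these mRNAs, the helicase DDX6 and its LSM14 and PAT1 partners form repressive complexes on them, and oocyte forms of the cap-binding and poly(A)-binding proteins replace or accompany the somatic forms. Genes for 10 such proteins were followed by their symbols (Ybx2, Zar1, Zar1l, Igf2bp2, Lsm14b, Ddx6, Patl2, Eif4e1b, Eif4enif1 and Pabpc1l) through the deposited tables of total and ribosome-bound mRNA. Of the 10, 9 are in both tables, among 10530 genes of total mRNA, 8898 of ribosome-bound mRNA and 8537 in both, and Eif4enif1 is in neither.

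The data come from MII oocytes of C57BL/6 mice in which Cre driven by the oocyte promoter Zp3 switches the ribosomal protein gene Rpl22 to an HA-tagged form (RiboTagF/F;Zp3-Cre), so the tag is carried by young and old animals alike. Young mice were 1 month and old mice, retired breeders, 12 to 15 months of age, and ovulation was induced in all with 5 IU PMSG followed after 48 h by 10 IU hCG, and oocytes were taken 13 h later. Each age is represented by 2 pools of 200 oocytes, and pools, not single animals, are the replicates. A share of 10% of every lysate was set aside to measure total mRNA (input), HA immunoprecipitation of the remainder gave ribosome-bound mRNA (HA), and 8 libraries resulted. The study describes the pools as biologically independent samples from 1 experiment.

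Values are CPM (reads on a gene scaled to library size, with TMM factors), with 37817382 to 59688578 reads on the genes of an HA library and 38276453 to 60052814 on those of an input library. A floor of 3 reads corresponds to 0.0388 to 0.111 CPM in HA and 0.0435 to 0.0788 CPM in input, for counting error only. All 11 oocyte markers examined are listed, with summed levels of 8726 to 17461 CPM per library. Of 15 markers of follicle cells and stroma, 4 are in the HA table, where their sum was 88.8 to 144 CPM in old and 199 to 207 CPM in young pools, and 8 are in the input table (154 to 306 CPM in old, 195 to 277 CPM in young). Of 9 markers of blood, immune cells and oviduct, none is in the HA table and 1 is in the input table (0.963 to 57.6 CPM in old, 0.0581 to 3.29 CPM in young). The TMM factors differ between the ages in HA, at 0.715 to 0.896 in old and 1.20 to 1.30 in young libraries. The part of these differences in the results below was not tested, and scalings without TMM are given where they turn a direction. In a pool, fewer oocytes of a kind and less mRNA per oocyte cannot be told apart.

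The place of each gene was read from GENCODE M21 on GRCm38. Cytoplasmic polyadenylation elements (CPEs), the sites in 3′ UTRs through which CPEB controls masking and later poly(A) addition, were searched on the sense strand of a gene's longest 3′ UTR in that annotation, as TTTTAT or TTTTAAT, where neither holds the other and neighbours can share at most their end T. An element was found in 4 of the 9 listed genes (44.4%), against 70.7% of the 7930 genes of both tables that have an annotated 3′ UTR. The 3′ UTRs of the 9 genes are shorter, with a median of 499 bases against 1330, and the number of elements per kb of 3′ UTR was 1.23 against 1.44. The element nearest the 3′ end of each of these 4 genes is given because CPEs are sites of the control in which these proteins take part. Whether the matched letters act as such sites was not tested. Each line gives 30 bases of the gene's strand on GRCm38, with the element nearest the 3′ end in capitals.

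Ddx6, chr9:44639893-44639922, + strand: aagccatgttaTTTTAATtggatacttttt
Lsm14b, chr2:180034634-180034663, + strand: aatggaaccaaaTTTTATttggcacatgtg
Igf2bp2, chr16:22059374-22059403, - strand: attttttatttTTTTAATaaaaatgagttg
Ybx2, chr11:69941532-69941561, + strand: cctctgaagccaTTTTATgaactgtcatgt

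Ybx2 holds 1 element that starts 62 bases from the annotated 3′ end and was the only one of the 9 genes with an element in the last 100 bases, against 21.5% of the 7930 genes. Ddx6 holds 7 elements in a 3′ UTR of 4250 bases, and Lsm14b and Igf2bp2 hold 2 each. Those nearest the annotated 3′ end start 828 bases from it in Ddx6, 820 in Lsm14b and 384 in Igf2bp2. The element in capitals for Igf2bp2 overlaps an AATAAA, the letters of the poly(A) signal. The lower-case bases before it hold the other element of that gene, a TTTTAT. None of these sequences was found in the annotated 3′ UTRs of Eif4e1b (1063 bases), Pabpc1l (499 bases), Patl2 (366 bases), Zar1 (146 bases) and Zar1l (14 bases), which says only that these letters are absent from the windows searched.

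Per kb of exon, the mRNAs for the oocyte cap-binding protein and for LSM14B were the most abundant of the group. In input, the mean over the 4 pools was 304 CPM per kb for Eif4e1b and 250 for Lsm14b, which exceed 99.3% and 99.1% of the genes of the table. Igf2bp2 followed at 119 CPM per kb, Ybx2 at 112, Zar1 at 79.2, Zar1l at 67.3, Pabpc1l at 22.3, Patl2 at 11.1 and Ddx6 at 3.93. The ranges over the 4 pools did not overlap between Lsm14b (203 to 282) and Igf2bp2 (111 to 123), between Ybx2 (101 to 128) and Zar1 (60.5 to 93.9) or between Zar1l (58.5 to 83.0) and Pabpc1l (12.2 to 43.9). All other neighbours in this order overlapped. Ddx6, a helicase of P-bodies in many cell types, was thus the lowest of the 9 in input, above 46.4% of the genes.

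In HA, the order was again led by Eif4e1b (210 CPM per kb) and Lsm14b (179), followed by Zar1 (82.2), Igf2bp2 (46.3), Ybx2 (23.3), Zar1l (21.5), Pabpc1l (11.6), Ddx6 (3.53) and Patl2 (2.39). Zar1, whose range over pools was 68.2 to 104, did not overlap its neighbours Lsm14b (137 to 201) and Igf2bp2 (12.9 to 63.2). The other neighbours overlapped. Zar1 therefore stood at place 5 in input and 3 in HA, and Ybx2 at places 4 and 5. The 9 genes together held 0.261 to 0.354% of the input reads and 0.103 to 0.231% of the HA reads.

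Levels in input varied little between pools, and levels in HA varied more, most of all in old oocytes. The absolute log2 difference between the pools of an age had a median over the 9 genes of 0.257 in old and 0.301 in young input, against 0.618 and 0.466 over the 6703 genes with a mean of at least 10 CPM. In HA, the corresponding medians were 1.25 in old and 0.470 in young oocytes, against 1.32 and 0.646 over 5691 genes. The pools of old oocytes differed by more than 1 on this scale for 6 of 9 genes in HA, against 57.8% of all genes, and for 1 of 9 in input, against 41.1%. The pools of young oocytes did so for 3 of 9 genes in HA, against 38.7%, and for 2 of 9 in input, against 29.5%. The plot of the level of each gene in each library shows this spread.

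**Figure D1:**
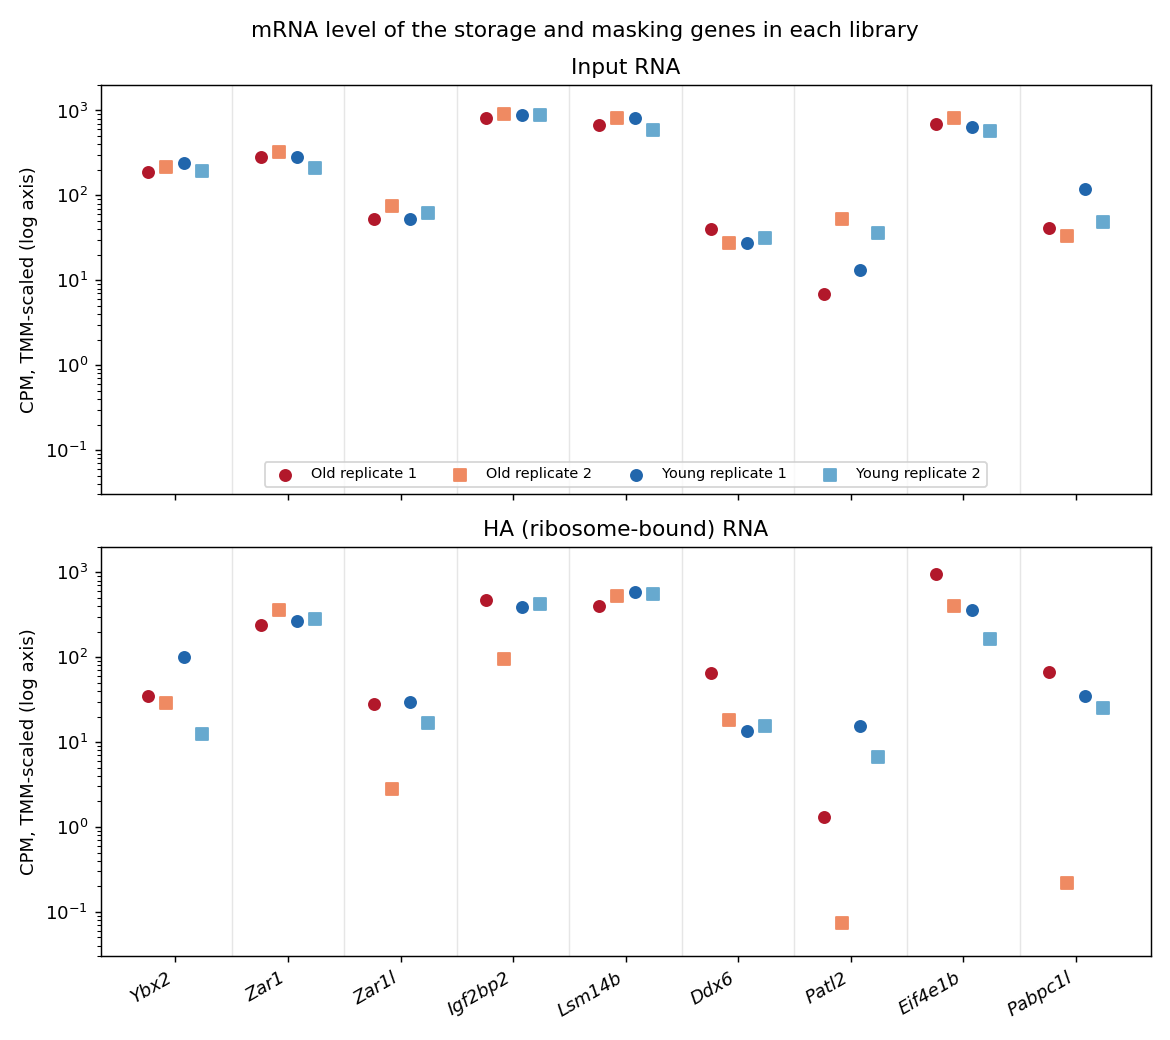
CPM (log axis) of the 9 listed genes in the input libraries (upper panel) and HA libraries (lower panel); each point is 1 library, red for old and blue for young, circles for replicate 1 and squares for replicate 2. Input points of a gene lie close together except for Patl2 and Pabpc1l, whereas in HA Old replicate 2 is far below Old replicate 1 for Pabpc1l (0.222 against 66.0 CPM), Zar1l (2.81 against 27.8) and Igf2bp2 (95.5 against 468).

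Translation efficiency (TE) was taken as HA CPM over input CPM of the same pool. Because the tables were scaled separately, a TE is read only against other genes. The median TE of the 9 genes was 0.582 and 0.135 in old pools and 0.551 and 0.477 in young pools, against 0.695, 0.581, 0.730 and 0.726 for the 8537 genes of both tables. In a pool, 5 to 7 of the 9 genes lay below the median gene. The mean log2 TE of the middle member, Igf2bp2, stood above 18.2% of the genes. It stood above 11.6% of the 5305 genes with a mean of at least 10 CPM in both tables. The median place of the members in that ranking was 22.5%, because it leaves out Patl2, a low member. Each of the other members stood lower in it than among all genes. TE was thus low for some of these mRNAs, and the group was not uniform, as the plot of HA/input in each pool shows.

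**Figure D2:**
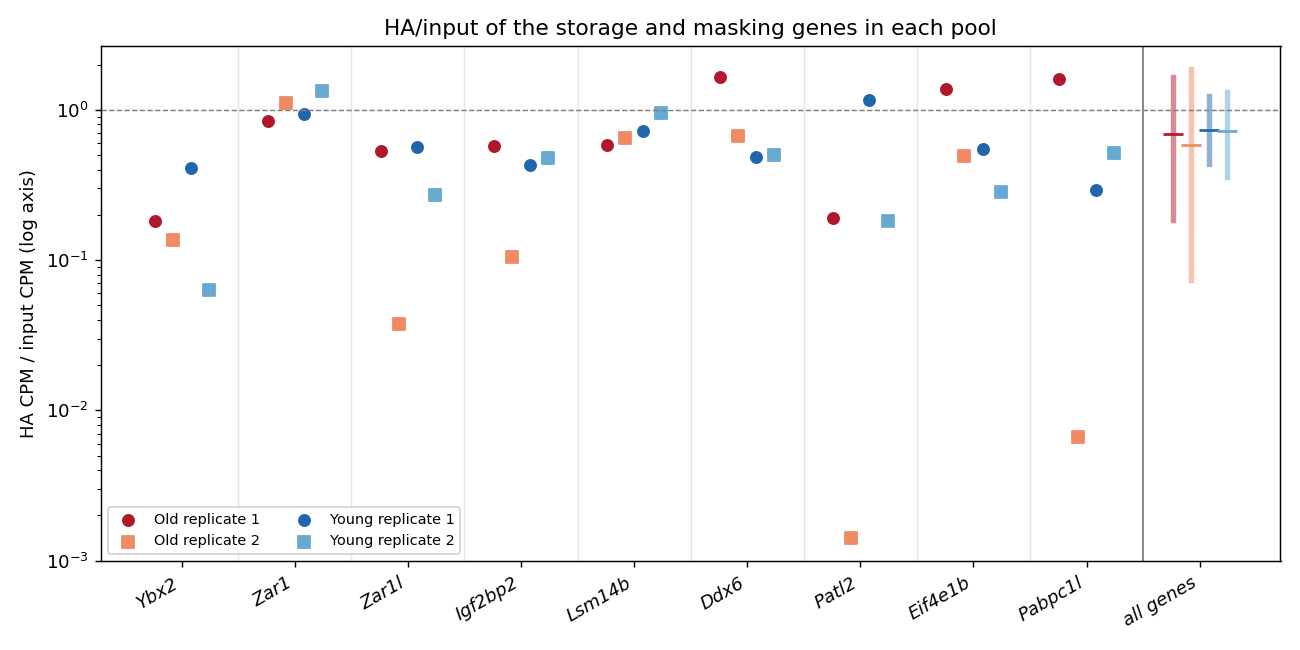
HA CPM over input CPM (log axis) of each gene in each of the 4 pools, red for old and blue for young; at the right, the horizontal mark is the median and the bar the quartile range of the 8537 genes of both tables in that pool, and the dashed line is a ratio of 1. Ybx2, Zar1l, Igf2bp2 and Lsm14b lie under 1 in all 4 pools, and Zar1 lies between 0.843 and 1.33.

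Among the RNA-coating and storage factors, Ybx2 encodes MSY2, the germ cell Y-box protein that binds stored mRNAs (chr11:69935796-69941605, + strand). Its input level was 190 and 214 CPM in old and 242 and 196 CPM in young pools. Its HA level was 34.7 and 28.9 CPM in old and 99.5 and 12.4 CPM in young pools. The young HA pools lie on either side of the old ones, so the groups overlap. TE was 0.183 and 0.135 in old and 0.411 and 0.0632 in young pools, at or below the 20.2th percentile of all genes in each pool. The mean log2 TE of Ybx2 was above 3.38% of the genes, the lowest place of the 9.

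Zar1, an oocyte factor needed at the egg-to-embryo transition and known to bind RNA (chr5:72576806-72581254, - strand), had 280 and 326 CPM in old and 282 and 210 CPM in young input. In HA it had 236 and 360 CPM in old and 264 and 280 CPM in young pools. Its TE of 0.843 and 1.11 in old and 0.935 and 1.33 in young pools lay above the median gene in all 4, between the 54.3th and 76.2th percentile. Zar1 was the only one of the 9 genes above the median gene in every pool.

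Its relative Zar1l (chr5:150507055-150518164, - strand) had similar input per kb but less HA. Input was 52.4 and 74.2 CPM in old and 52.5 and 61.9 CPM in young pools. HA was 27.8 and 2.81 CPM (76 reads) in old and 29.5 and 16.7 CPM in young pools. Per kb, Zar1 over Zar1l was 0.875 to 1.39 in input and 2.19 to 33.1 in HA, where Zar1 was higher in 4 of 4 pools.

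Igf2bp2 encodes an mRNA-binding protein of stored and transported transcripts (chr16:22059009-22163299, - strand). Its input level was nearly the same in all pools, at 818 and 913 CPM in old and 893 and 887 CPM in young. In HA it was 468 and 95.5 CPM in old and 386 and 423 CPM in young pools. Old replicate 2 was thus the low one, with a TE of 0.105, whereas the TE of the other 3 pools was 0.432 to 0.571.

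Of the repressive complex, Lsm14b encodes the oocyte RAP55 protein of mRNA storage granules (chr2:180024987-180035465, + strand). Input was 683 and 816 CPM in old and 807 and 587 CPM in young pools, and HA was 397 and 530 CPM in old and 582 and 558 CPM in young pools. In HA both old pools lie below both young ones. TE was 0.582 and 0.649 in old and 0.721 and 0.952 in young pools, again without overlap.

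Ddx6 (chr9:44604892-44640731, + strand), the helicase to which LSM14 and PAT1 proteins bind, had 39.8 and 27.3 CPM in old and 27.7 and 31.4 CPM in young input. HA was 65.9 and 18.4 CPM in old and 13.4 and 15.7 CPM in young pools. Both old HA values are above both young ones, with Old replicate 1 standing apart. TE was 1.66 and 0.675 in old and 0.485 and 0.498 in young pools.

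Patl2 encodes the oocyte PAT1 protein (chr2:122120108-122186189, - strand). Input was 6.87 and 52.3 CPM in old and 13.1 and 36.2 CPM in young pools, so that the replicates of an age differed 7.61-fold and 2.76-fold. HA was 1.31 CPM (55 reads) and 0.0739 CPM (2 reads, exact 95% Poisson interval 0.242 to 7.22 reads) in old and 15.3 and 6.61 CPM in young pools. Both old values lie below both young ones in HA. TE was 0.190 and 0.00141 in old and 1.17 and 0.183 in young pools, and Young replicate 2 falls just under Old replicate 1.

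At the cap, Eif4e1b encodes an oocyte form of the cap-binding protein eIF4E (chr13:54783998-54788459, + strand). Input was 699 and 825 CPM in old and 645 and 572 CPM in young pools. HA was 967 and 405 CPM in old and 355 and 163 CPM in young pools. Old is above young in both fractions without overlap. TE was 1.38 and 0.491 in old and 0.551 and 0.285 in young pools, which overlap.

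Eif4enif1, which encodes the eIF4E-binding protein 4E-T of P-bodies (chr11:3202392-3244588, + strand), has no row in either table. All of its 6370 exon bases (100%) lie within the span of Drg1 on the other strand (chr11:3187360-3266415). The authors counted reads over whole gene spans without strand, and reads in such a stretch cannot be assigned to one of the genes. Of 1287 protein-coding genes that lie wholly inside the span of another gene, 15 (1.17%) are in the HA table and 30 (2.33%) in the input table, against 39.8% and 46.5% of the other 20664. The absence of Eif4enif1 is thus no measure of its mRNA. Drg1 itself is listed at 1.84 to 6.48 CPM in input and 0.0176 to 7.27 CPM in HA. The exons of the other 9 genes lie outside all other annotated genes.

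Pabpc1l encodes the embryonic poly(A)-binding protein ePAB, the form used by oocytes (chr2:164025450-164050538, + strand). Input was 41.1 and 33.3 CPM in old and 120 and 48.9 CPM in young pools, with both old values below both young ones. HA was 66.0 CPM (2780 reads) and 0.222 CPM (6 reads, exact 95% Poisson interval 2.20 to 13.1 reads) in old and 35.2 and 25.1 CPM in young pools. The old HA pools thus differed 298-fold and lie on either side of the young ones. TE was 1.61 and 0.00665 in old and 0.294 and 0.514 in young pools.

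The first comparison asked whether the total mRNA of these genes differed between old and young oocytes. None of the 9 passed an adjusted p of 0.05 in limma over the whole input table, where 1 of 10530 genes did (0.0095%). Pabpc1l had the largest difference, with 37.2 ± 5.48 CPM in old and 84.2 ± 49.9 CPM in young pools (SD, n = 2) and a log2 difference of -1.03 ± 0.54 (SE, limma adjusted p = 0.790). Without Young replicate 1, the highest of the 4 values, its log2 difference was -0.39, and without Young replicate 2 it was -1.67. In DESeq2 its unadjusted p was 0.0422 (DESeq2 adjusted p = 0.5). Eif4e1b followed at 0.32 ± 0.23 (limma adjusted p = 0.878) and Zar1 at 0.31 ± 0.29 (limma adjusted p = 0.906). The other 6 genes lay between -0.16 and 0.16.

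Of the 9 genes, none had an unadjusted limma p under 0.05 in input, against 2.71% of all genes with old higher and 3.48% with old lower. For 1 gene (Eif4e1b) both old pools were above both young ones, against 16.4% of all genes, and for 1 (Pabpc1l) both were below, against 18.9%. The median log2 difference of the 9 genes was 0.12, and that of all genes was -0.026. These counts are near those of the whole table. With all libraries rescaled to the same sum, Zar1l (-0.059), Lsm14b (-0.072) and Ddx6 (-0.028) turned to slightly lower in old, and Patl2 turned to 0.26 to 0.28 in the tests on reads. The likelihood ratio test of edgeR, run on recovered reads as the study's kind of test, passed 0.475% of all genes and none of the 9.

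The comparison of HA libraries asked whether the mRNAs were loaded on ribosomes to a different extent. None of the 9 genes passed an adjusted p of 0.05 in limma, and neither did any of the 8898 genes (0.0%), while 1311 had an unadjusted p under 0.05. Tests on reads passed 295 genes (3.32%) with edgeR's likelihood ratio, 508 with DESeq2 and 0 with edgeR's quasi-likelihood, with none of the 9 genes among them in any of these tests.

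Patl2 was the only one of the 9 with an unadjusted limma p under 0.05 in HA, at 0.0491 (limma adjusted p = 0.338). This did not hold in limma with a pseudocount of 0.1 CPM (0.065), median log2 ratios (0.0549), quantile normalization (0.146) or a replicate block (0.0589). It held in limma with equal sums (0.0328) or a pseudocount of 5 CPM (0.0456) and in DESeq2 (0.0357). In edgeR it held in the likelihood ratio test (0.0491) but not in the quasi-likelihood test (0.114). Eif4e1b was under 0.05 in limma with median log2 ratios (0.0287), genes of at least 10 CPM (0.0438) or the block (0.00835). It also was in edgeR's quasi-likelihood test (0.0497). Patl2 had 0.690 ± 0.872 CPM in old and 10.95 ± 6.14 CPM in young pools (SD, n = 2), with a log2 difference of -2.82 ± 1.18 (SE). The log2(CPM + 1) scale understates the difference of such low values, which was -4.36 with a pseudocount of 0.1 CPM. Old was lower under each of the 9 settings other than leaving out a pool that could be run for Patl2. The limma, edgeR or DESeq2 adjusted p was then 0.237 to 0.771. Of these settings, the replicate block cannot turn the direction, for this or any other gene. Old was also lower with each pool left out (-3.37 to -2.27). Genes with an unadjusted p under 0.05 and old lower made up 10.5% of the table, so 1 of 9 is near the background. That background depends on filter and scaling. Among genes with a mean of at least 10 CPM, which leaves out Patl2, 378 were higher and 66 lower in old. With equal sums 112 were higher and 1279 lower, and with quantile normalization 253 and 230.

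Eif4e1b had 686 ± 397 CPM in old and 259 ± 136 CPM in young HA (SD, n = 2), a log2 difference of 1.37 ± 0.61 (SE, limma adjusted p = 0.362). Its unadjusted p was 0.0588, and 4.28% of all genes had one under 0.05 with old higher. Old was higher under all 11 other settings (0.73 to 1.61) and with each pool left out (0.75 to 2.00). Ddx6 had the next largest positive difference, 1.22 ± 1.19 (SE, limma adjusted p = 0.768), which fell to 0.32 without Old replicate 1.

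Lsm14b had a log2 difference of -0.31 ± 0.39 (SE, limma adjusted p = 0.832) in HA. Its size depended on the scaling, at -0.95 with equal sums and -0.997 with quantile normalization. The unadjusted limma p was then 0.0297 and 0.0275 (limma adjusted p = 0.266 and 0.771). The difference was -0.10 with median log2 ratios and -0.076 in DESeq2, and it stayed below 0 under every setting run. Zar1 was at 0.10 ± 0.46 (SE, limma adjusted p = 0.969) and turned to -0.54 with equal sums and -0.53 with quantile normalization. The HA median of all genes itself moved from -0.14 to -0.68 with equal sums and to -0.053 with quantile normalization. Lsm14b lay below that median under all 3 scalings, whereas Zar1 lay above it with TMM and equal sums and below it with quantile normalization.

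For 4 of the 9 genes the direction in HA turned without Old replicate 2, among them Zar1, which went from 0.10 to -0.20. The log2 differences of the other 3, Igf2bp2, Zar1l and Pabpc1l, were -0.93 ± 0.75, -1.15 ± 1.53 and -1.76 ± 2.02 (SE, limma adjusted p of 0.702 to 0.844). Without Old replicate 2 they were 0.21, 0.31 and 1.13. Without Old replicate 1, which leaves the low pool as the lone old sample, they were -2.07, -2.61 and -4.65, and Igf2bp2 (adjusted p = 0.0382) and Pabpc1l (adjusted p = 0.0467) then passed limma's threshold along with 393 genes in all. That fit assumes that the lone old library varies as the young ones do. Ybx2 was at -0.17 ± 1.20 (SE, limma adjusted p = 0.981) and ranged from -1.62 without Young replicate 2 to 1.29 without Young replicate 1. It also turned to 0.037 when libraries were scaled to the median log2 ratio. The plot of the HA difference with each pool left out shows these 5 genes on both sides of 0.

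**Figure D3:**
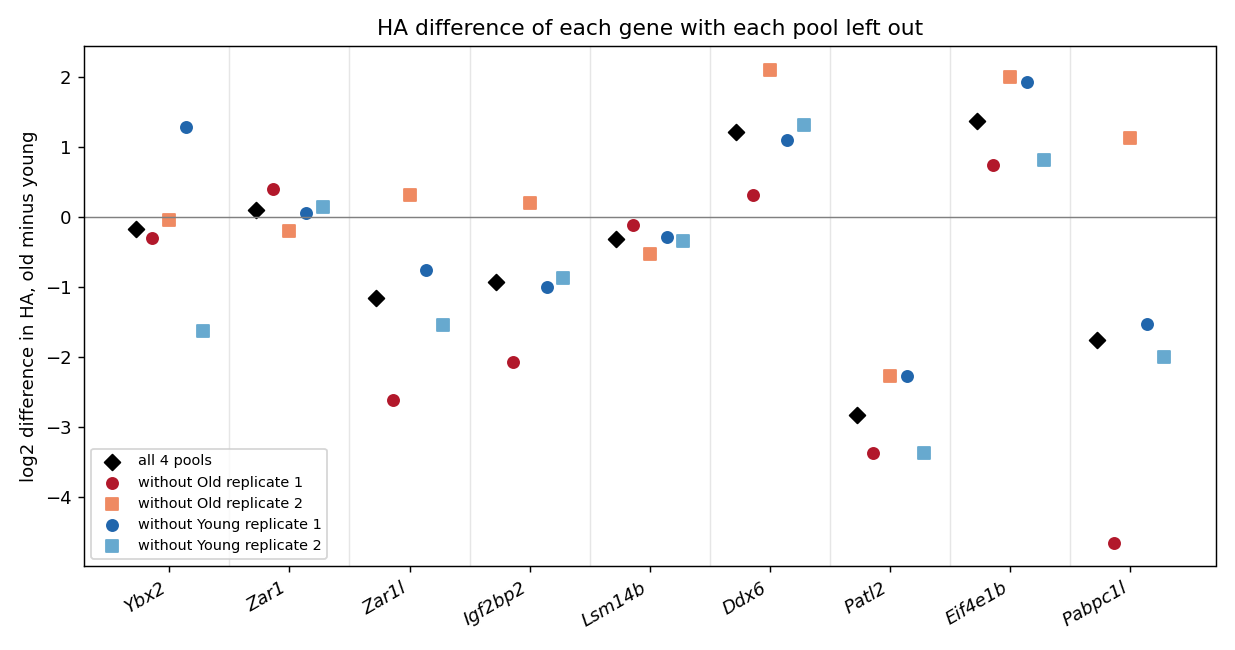
Log2 difference in HA, old minus young, of each gene with all 4 pools (black diamonds) and with 1 pool left out (coloured points, named in the key). Patl2 and Lsm14b stay below 0 and Ddx6 and Eif4e1b above 0 in all 5 fits, while Ybx2, Zar1, Zar1l, Igf2bp2 and Pabpc1l cross 0.

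In HA, both old pools were above both young pools for 2 of the 9 genes (Ddx6 and Eif4e1b), against 17.2% of all genes, and below them for 2 (Lsm14b and Patl2), against 24.7%. The median log2 difference of the 9 genes was -0.31 and that of all genes -0.14. The shares are near those of the table. For 1 gene alone, exact permutation of 2 old against 2 young pools allows no two-sided p smaller than 0.333.

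The last comparison was of TE, log2(HA CPM + 1) minus log2(input CPM + 1) per pool, between the ages. No gene of the 8537 passed an adjusted p of 0.05 in limma (0.0%), 554 had an unadjusted p under 0.05, and edgeR's quasi-likelihood interaction test on reads gave 0 with 641 at an unadjusted p under 0.05. None of the 9 genes was among those with an unadjusted limma p under 0.05, against 2.98% of all genes with old higher and 3.51% with old lower. Ddx6 (1.06 ± 1.25) and Eif4e1b (1.05 ± 0.61) were the only genes of the 9 with a log2 difference above 0 (SE, limma adjusted p = 0.877 and 0.739). With each pool left out, Ddx6 ranged from 0.43 to 1.69 and Eif4e1b from 0.31 to 1.8. Patl2 was at -2.66 ± 1.90 (SE, limma adjusted p = 0.781), Zar1l at -1.28 ± 1.45, Igf2bp2 at -0.89 ± 0.74 and Pabpc1l at -0.73 ± 1.78. Without Old replicate 2, Zar1l, Igf2bp2 and Pabpc1l turned to 0.43, 0.33 and 2.01, and Patl2 was at -0.73. Pabpc1l also turned to 0.11 with a pseudocount of 5 CPM.

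For TE, both old pools were above both young pools for 1 of the 9 genes (Ddx6), against 17.2% of all genes, and below for 1 (Lsm14b), against 20.4%. Lsm14b was at -0.43 ± 0.43 (SE, limma adjusted p = 0.856) and stayed below 0 under every setting run. Zar1 (-0.21 ± 0.55) and Ybx2 (-0.052 ± 1.01) were nearest to 0, and Ybx2 turned to 0.13 with median scaling. The median over the 9 genes was -0.43 and over all genes -0.11. The plot of old against young for the 3 comparisons shows that standard errors in HA and TE exceed those in input.

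**Figure D4:**
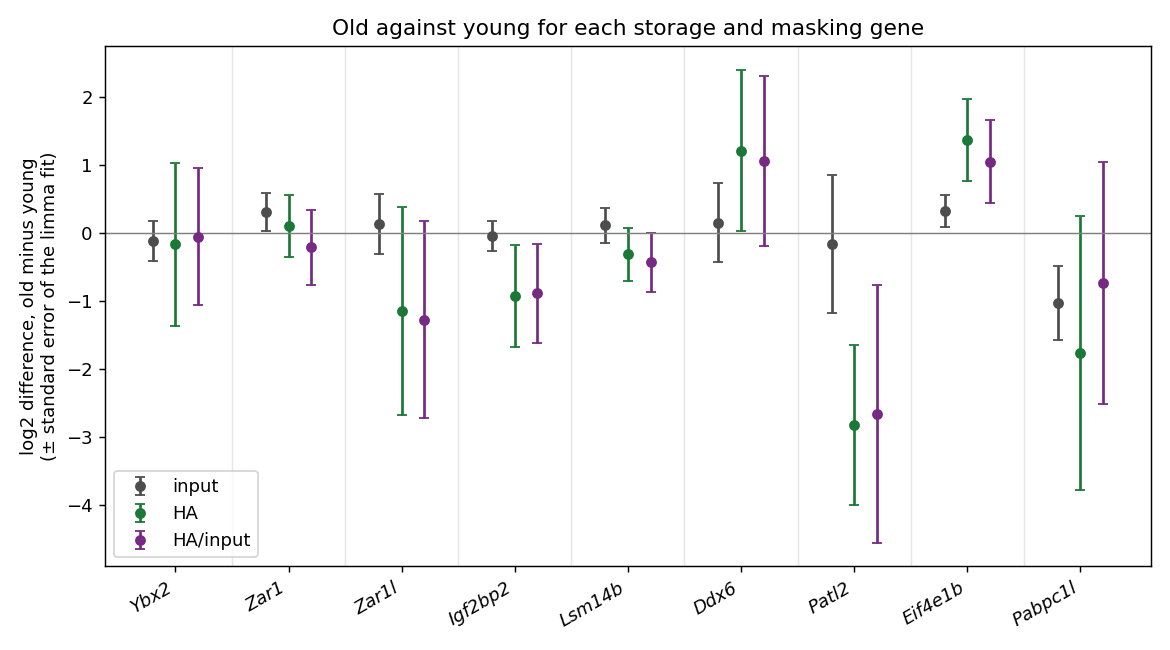
Log2 difference, old minus young, of each gene in input (grey), HA (green) and HA/input (purple), with bars for the standard error of the limma fit over 2 pools per age. In HA only Patl2 (-2.82) and Eif4e1b (1.37) lie further than 2 standard errors from 0, and in input and HA/input no gene does.

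The members were next set beside their broadly expressed paralogs, per kb of exon. In input, Eif4e1b exceeded Eif4e in 4 of 4 pools, by 14.3 to 32.2 times, and in HA by 8.23 to 41.2 times. Igf2bp2 exceeded Igf2bp3 in 4 of 4 input pools (5.63 to 13.6 times) and in 3 of 4 HA pools, the exception being Old replicate 2. Lsm14b exceeded Lsm14a in 4 of 4 input pools, by 1.11 to 2.65 times, and in 2 of 4 HA pools. Pabpc1l exceeded Pabpc1 by 3.71 to 12.3 times and Pabpc4 by 1.49 to 3.81 times in input, and each of them in 3 of 4 HA pools. The values of Pabpc1, Ybx1 and other genes with processed pseudogenes are uncertain, since reads that fit several places may not have been counted.

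For Ybx2 and Patl2 a paralog was the more abundant. Ybx3 exceeded Ybx2 in every library, with a mean of 602 against 112 CPM per kb in input and 267 against 23.3 in HA, whereas Ybx2 exceeded Ybx1 in 4 of 4 input and 1 of 4 HA pools. Patl1 exceeded Patl2 in 4 of 4 HA pools (27.5 against 2.39 CPM per kb) and in 3 of 4 input pools. Patl1 also had old values above young ones in both fractions, at 170 and 129 CPM in old against 36.9 and 56.0 CPM in young input, and 191 and 204 CPM in old against 41.7 and 35.7 CPM in young HA. Its log2 differences were 1.68 ± 0.41 in input and 2.33 ± 0.61 in HA (SE, limma adjusted p = 0.778 and 0.297). In HA, Patl1 and Patl2 thus lay on opposite sides of 0, and neither passed the adjusted threshold.

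Of the 13 paralogs examined, 9 are in the input and 8 in the HA table, and none passed an adjusted limma p of 0.05. At an unadjusted limma p under 0.05, 2 were higher in old input, Patl1 and Lsm14a (1302 and 1186 CPM in old, 647 and 1016 CPM in young, log2 difference 0.62 ± 0.27), and Patl1 alone in HA. The shares of all genes at that level with old higher were 2.71% in input and 4.28% in HA. Both old pools were above both young pools for 5 of 8 paralogs in HA, against 17.2% of all genes, and below for 1, against 24.7%. The median log2 difference of the paralogs was 0.80 in HA and 0.79 in TE, where all 8 lay above 0. Over all genes it was -0.14 and -0.11. The corresponding medians of the 9 oocyte genes were -0.31 and -0.43, and they turned to 0.21 and 0.33 without Old replicate 2. The background medians moved with filter and scaling. They were 0.183 in HA and 0.132 in TE once genes averaging under 10 CPM were dropped, and -0.678 and -0.478 with equal sums. Whether the paralogs' medians hold under other settings or without a pool was not tested.

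Proteins of P-bodies and stress granules, the somatic counterparts of the storage granules, were followed as 29 genes, of which 24 are in the input and 23 in the HA table. None passed an adjusted limma p of 0.05. In HA, 2 of 23 had an unadjusted limma p under 0.05 with old higher, against 4.28% of all genes, and 2 of 23 with old lower, against 10.5%. Higher were Atxn2l (8683 and 11663 CPM in old, 5347 and 3686 in young) and Dcp1a, a decapping cofactor (6006 and 9441 CPM in old, 4053 and 2596 in young). Lower were Lsm1 and Lsm3, subunits of the LSM ring that binds PAT1. Lsm1 had 0.0475 and 0 CPM in old and 5.42 and 7.46 CPM in young HA, and Lsm3 0.0238 and 0.0739 CPM in old and 2.07 and 7.47 CPM in young HA. None of these old HA values exceeds the floor of 3 reads.

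In TE, Dcp1a (1.02 ± 0.35), Tnrc6c (2.09 ± 0.77) and Tnrc6b (1.31 ± 0.50) were higher and Lsm6 (-3.65 ± 1.55) lower in old at an unadjusted limma p under 0.05 (log2 difference ± SE, adjusted p of 0.739 for all 4). These are 3 and 1 of 23 genes, against 2.98% of all genes with old higher and 3.51% with old lower. TNRC6 proteins carry microRNA-guided repression. In input, Dcp1b alone was below that level of p, with 0.0368 and 0.0401 CPM in old and 7.46 and 1.60 CPM in young pools, the old values being under the floor of 3 reads. Of all genes, 3.48% were at that level with old lower in input. The median log2 difference of the 29-gene list was 0.073 in input, 0.27 in HA and 0.35 in TE.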

How the data were processed

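RNA-Seq of 8 libraries from 4 pools of MII oocytes was used. The authors trimmed reads (Trimmomatic 0.36), aligned them to GRCm38 with HISAT2, counted them with HTSeq over GENCODE M11 gene spans without strand, filtered low values and scaled them by TMM, separately for HA and input. The deposited signal values are these CPM, and their column sums differ because of the TMM factors. All values were whole multiples of 1 read within 0.001, so reads were recovered (100% of values). The tables hold genes below the filter that the Methods give (10 CPM, 2 libraries).

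Old and young were compared with limma 3.58.1 (lmFit, eBayes with trend, two-sided) on log2(CPM + 1), with Benjamini-Hochberg adjustment over all genes. For TE the trend ran over the mean level of both libraries of the pools. HA and input of a pool share a lysate. P-values measure the spread between pools. edgeR 4.0.16 and DESeq2 1.42.0 were run on recovered reads as alternatives, and the tests were tested on simulated data. Genes were placed with GENCODE M21, which held 99.7% of the HA and 99.8% of the input identifiers. Named genes are all 10 members, the paralogs set beside them, and of each list those with an unadjusted p under 0.05 (at most 4 per comparison). Members and lists were chosen with earlier results of these data known. R 4.3.3 and Python 3.11.15 were used.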

Additional observations from a re-analysis of the deposited data

How the results depend on the processing

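With 2 pools per age, the spread between pools, most of all in old HA, limits every comparison, with standard errors of the members' log2 differences of 0.39 to 2.02 in HA. The members' log2 differences were compared with the main fit under settings other than leaving out a pool. Of these, 92 of 99 in input, 91 of 97 in HA and 86 of 88 in TE kept direction and side of the threshold. The replicate block returns the log2 difference of the main fit, so it cannot turn a direction. In TE the limma interaction over 8 libraries repeats the main fit in full. In input and HA both edgeR tests share their log2 difference. The counts are therefore not counts of independent checks. Patl2 has no value under the filters at 10 CPM in HA and TE.

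Across these settings 7, 6 and 2 differences turned. In input they were Zar1l (-0.0588), Lsm14b (-0.072) and Ddx6 (-0.0275) with equal sums, Lsm14b (-0.0579) with quantile normalization and Patl2 in both edgeR tests (0.264) and DESeq2 (0.277). In HA they were Zar1 with equal sums (-0.536) and quantile normalization (-0.525), Ybx2 with median log2 ratios (0.0373) and Pabpc1l in both edgeR tests (0.136) and DESeq2 (0.282). In TE they were Pabpc1l with a pseudocount of 5 CPM (0.11) and Ybx2 with median log2 ratios (0.131). The cause was not tested.

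Genes with an adjusted p under 0.05 in input numbered 1 in limma, 50 in edgeR's likelihood ratio test, 0 in its quasi-likelihood test and 114 in DESeq2, and in HA they numbered 0, 295, 0 and 508. The members' median in input turned to -0.072 with equal sums and -0.0579 with quantile normalization. The median level of the members per kb in input was 79.2 CPM over the exon union and 110 CPM over the longest transcript.

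With each pool left out in turn, genes with an adjusted p under 0.05 numbered 0 to 2 in input, 0 to 634 in HA (393 without Old replicate 1, 634 without Young replicate 2) and 0 to 13 in TE, and members 0 to 2 in HA. The members' median ranged from -0.12 to 0.246 in input, -0.864 to 0.21 in HA and -0.63 to 0.331 in TE. In input the ranges that crossed 0 were -0.265 to 0.0367 for Ybx2, -0.12 to 0.376 for Zar1l, -0.121 to 0.0369 for Igf2bp2, -0.112 to 0.347 for Lsm14b, -0.108 to 0.42 for Ddx6 and -1.54 to 1.22 for Patl2. In HA they were -1.62 to 1.29 for Ybx2, -0.2 to 0.405 for Zar1, -2.61 to 0.311 for Zar1l, -2.07 to 0.21 for Igf2bp2 and -4.65 to 1.13 for Pabpc1l. In TE they were -1.36 to 1.25 for Ybx2, -0.465 to 0.0457 for Zar1, -2.98 to 0.432 for Zar1l, -2.11 to 0.331 for Igf2bp2 and -3.48 to 2.01 for Pabpc1l. The values without each pool rest on 1 lone library of an age.

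The labels give same-numbered old and young pools a shared number and do not say whether they were handled together. The correlation of their deviations was 0.0269 in input, 0.0786 in HA and 0.0108 in TE, which cannot decide this. With the replicate block, 9 genes passed in HA and 5 in TE, none of them a member; in HA the unadjusted p was then 0.0589 for Patl2 and 0.00835 for Eif4e1b. The limma interaction over 8 libraries gave the same values as the TE fit, with which it is algebraically the same.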

Other observations

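Other RNA-binding proteins of 3′ UTRs known in germ cells were followed as 28 genes, of which 25 are in the input and 23 in the HA table, and none passed an adjusted limma p of 0.05. In HA, Ddx3x, a helicase of translation initiation, was higher in old (3173 and 3436 CPM against 1352 and 1167 CPM in young, log2 difference 1.39 ± 0.32, limma unadjusted p = 0.00374, adjusted p = 0.297), as was Rc3h1, the RNA-decay factor roquin (112 and 121 CPM against 39.5 and 18.5 CPM, 2.06 ± 0.77, limma unadjusted p = 0.0332). Stau1, a binder of double-stranded RNA, was lower in old HA (178 and 142 CPM against 393 and 483 CPM, -1.45 ± 0.45, limma unadjusted p = 0.0155). These are 2 higher and 1 lower of 23 genes, against 4.28% and 10.5% of all genes. Rc3h1 (2.18 ± 0.92) and Stau1 (-1.29 ± 0.55) were also under an unadjusted limma p of 0.05 in TE, against 2.98% of all genes with old higher and 3.51% with old lower. In input only Stau2 was, with 162 and 191 CPM in old and 109 and 86.4 CPM in young pools. Of all genes, 2.71% were at that level with old higher in input. The HA values of Stau2 in old were 3.80 and 528 CPM, with the young pools (50.4 and 71.5 CPM) between them. The median log2 difference of the list was 0.0035 in input, 0.31 in HA and 0.19 in TE.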
